A study of Oryza sativa Japonica Group with 3 samples.

Results

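The genes described here were annotated as ribosomal proteins of plastids or mitochondria in rice (Oryza sativa, cultivar Nipponbare). They were the genes whose description in the deposited table held "ribosomal protein" together with 30S, 50S, chloroplast, plastid or mitochondrial, and held none of 40S, 60S, kinase or methyltransferase. Of 35664 genes in the table, 66 met this rule. The series compared nuclear RNA with poly(A) RNA of root tips, in 4 biological replicates each per its design text. The sample titles mark both pools as control. Tips of 1 cm were cut from seedlings 7 days old, grown with 1% sucrose. The nuclear pool came from the line p35S:OsNTF2, in which the 35S promoter drives a tag on the nuclear envelope. Its nuclei were captured on streptavidin beads and its ribosomal RNA was degraded. The poly(A) pool came from the line p35S:HF-FLAG-OsRPL18, in which the same promoter drives a tagged cytosolic ribosomal protein L18, and was captured on oligo(dT). The labels give medium of strength 0.5 for the nuclear pool and 1 for the poly(A) pool, whereas the design text gives a single strength. Plant line, medium and RNA selection changed together with the pool, so their parts in any difference cannot be told apart. A sample of shoot base nuclei was not analysed here.

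Plastids and mitochondria make some of their own proteins on ribosomes of bacterial type, each with a small subunit (30S in bacteria) and a large subunit (50S). Most of their ribosomal proteins are encoded by nuclear genes, translated in the cytosol and imported into the organelle, while the remaining ones are encoded by the organelle's own genome. In root tips, plastids are largely unpigmented proplastids, and mitochondria supply the energy of dividing and elongating cells.

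By description, 24 members named the chloroplast or plastid, 7 were mitochondrial, and 35 were called 30S or 50S with no organelle. The names of the last class do not say to which organelle the protein goes. It and the chloroplast class are together called plastid-type here, 59 genes in all, as a label of convenience. Of the 35 genes, 10 carry a protein name that is also found on the plastid genome. Which organelle the 35 proteins serve was not determined, and some may be mitochondrial. The large subunit was named in 43 descriptions and the small subunit in 22, and 1 description gave neither.

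Abundance was given as RPKM, which divides the reads of a gene by its length in kilobases and by the depth of the library. The RPKM values were whole multiples of the value of 1 read, which allowed reads to be recovered. Reads on listed genes numbered 1072511 to 2287770 per nuclear library and 19411234 to 29943165 per poly(A) library. The members held 646 to 1610 of these reads per library in nuclear RNA and 29125 to 47861 in poly(A) RNA. Pooled over the libraries of a pool, a tested member had a median of 29 nuclear reads (4 to 287) and 2021 poly(A) reads (258 to 8837), and 20 members had under 20 nuclear reads. The coefficient of variation between replicates had a median over members of 51.5% in nuclear and 7.06% in poly(A) RNA. Root markers were detected in both pools: RCc3 averaged 698 RPKM in nuclear and 1799 RPKM in poly(A) RNA, and the silicon channel LSI1 69.3 and 214 RPKM. SHR1 averaged 34.4 and 7.07 RPKM, SCR1 13.1 and 2.69 RPKM, both higher in nuclear RNA, and LSI2 122 and 88.9 RPKM. QHB was near the floor, at 1.245 and 2.03 RPKM, and was not called. It had 9 nuclear reads in all and 0 RPKM in nuclear replicates 1 and 4. The shoot meristem gene OSH1 had no reads in any library, the leaf gene CAB1R averaged 5.78 RPKM in nuclear and 3.23 RPKM in poly(A) RNA, and the 3 genes of the Rubisco small subunit averaged at most 1.06 RPKM in nuclear and 0.762 RPKM in poly(A) RNA.

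Organellar ribosomal protein transcripts made up a smaller share of nuclear RNA than of poly(A) RNA. Summed over the 66 members, they reached 583 ± 48.3 RPKM in nuclear RNA, against 1694 ± 59.5 RPKM in poly(A) RNA (SD, n = 4 each), 2.91 times as much in the poly(A) pool. All nuclear libraries, at 550 to 654 RPKM, lay below all poly(A) libraries, at 1609 to 1746 RPKM. As a share of reads on listed genes, the members took 0.0591% to 0.0704% of nuclear and 0.15% to 0.163% of poly(A) libraries. In bulk RNA, fewer cells of a type and less RNA per cell cannot be told apart.

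Gene by gene, 62 members passed the filter on low values (a mean of at least 1 RPKM in either pool), 2 of them through the poly(A) pool only. No member passed through the nuclear pool only. Of all tested genes, 1122 passed through the poly(A) pool only and 2713 through the nuclear pool only. At an adjusted p under 0.05 (limma on log2(RPKM + 1), adjusted over all 26928 tested genes), 50 members were lower in nuclear RNA, where 30.0% of all tested genes were lower. No member was higher, where 33.1% of all tested genes were higher, and none was higher at an unadjusted p under 0.05 or with voom on the recovered reads. Over all tested genes 8069 were lower and 8909 higher, and with libraries scaled to an equal sum without the 100 highest genes 6319 and 10557. Of the 50 members, 42 were lower by at least 2-fold, a size reached by 21.2% of all tested genes. In 50 of the 62 members every nuclear library lay below every poly(A) library, against 29.4% of all tested genes. In none did every nuclear library lie above every poly(A) library, against 31.7% of all tested genes, and in the remaining 12 the pools overlapped. The log2 difference, nuclear minus poly(A), had a median of -1.45 over the 62 members, which is 2.74-fold, with quartiles of -2.13 and -0.84 and a range of -4.62 to 0.17. The median over all tested genes was 0.08. The difference lay below 0 in 59 of the 62 members.

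**Figure D1:**
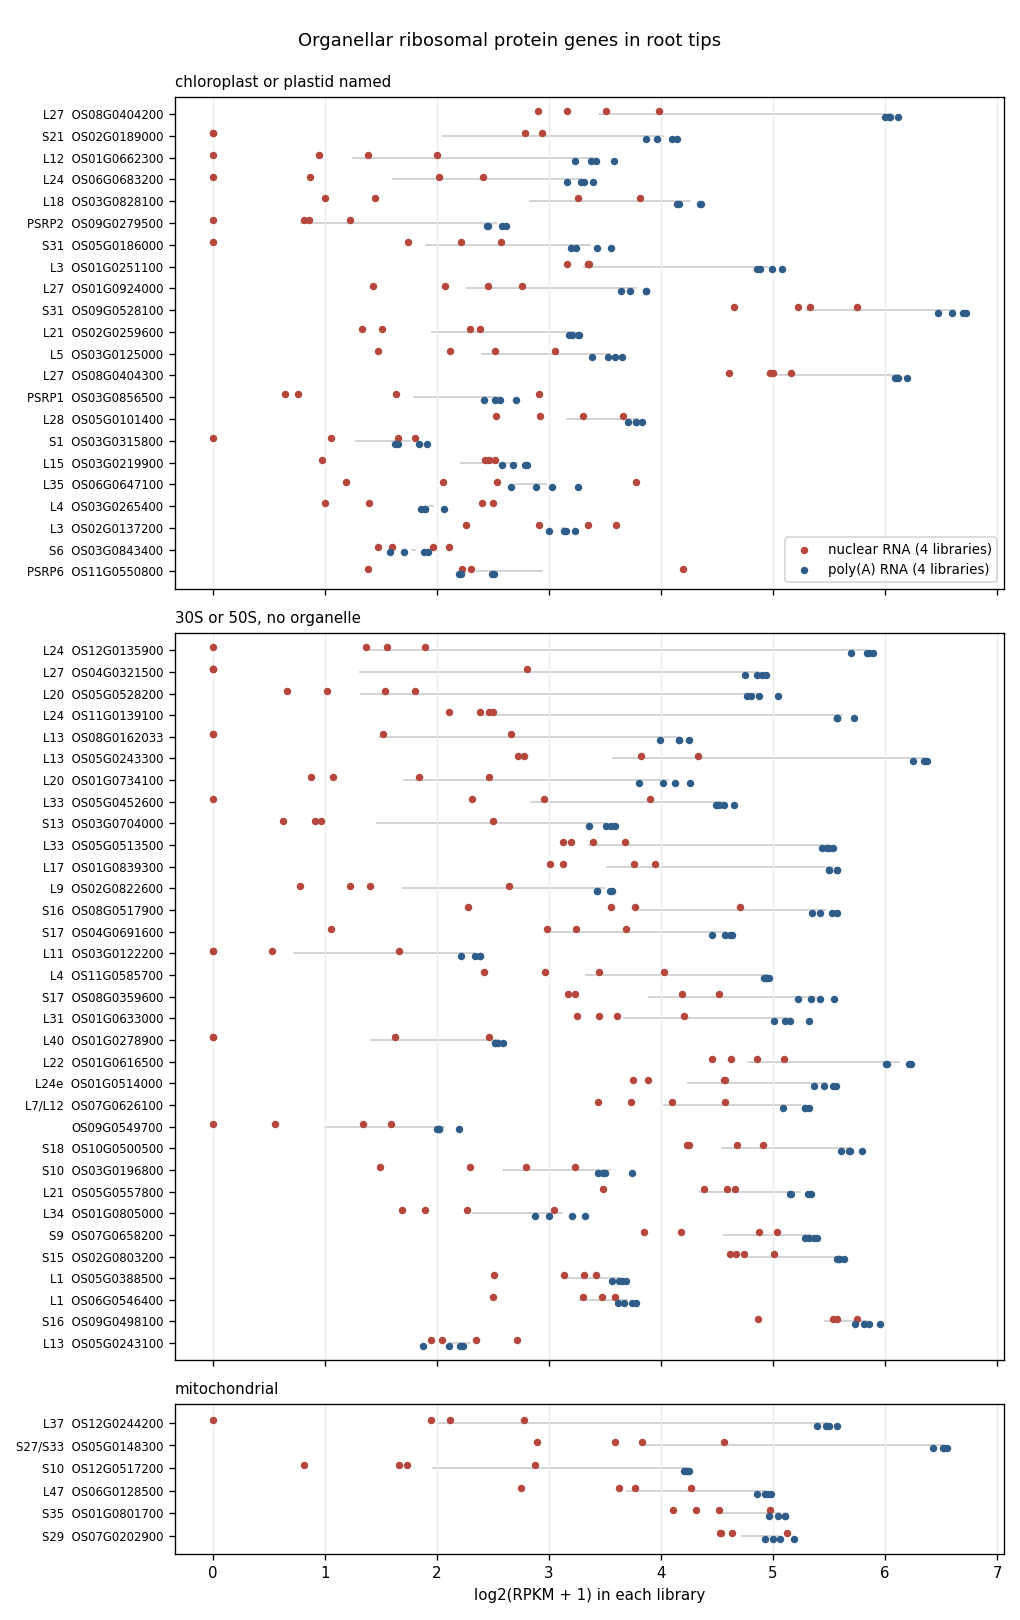
Level of 61 of the 62 tested members in each library, as log2(RPKM + 1), with nuclear libraries in red and poly(A) libraries in blue, 4 each. Members are ordered within their class by the difference between the pools, and a grey line joins the log2 of the 2 mean RPKM plus 1. In the upper rows of each class the red points lie left of the blue ones and spread more widely, and in the lowest rows they overlap.

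Set against the poly(A) mean, the median member was at -1.37, -1.05, -1.53 and -1.48 in nuclear replicates 1 to 4 on the log2 scale. Replicate 2, the most deeply sequenced nuclear library, was the least low. Nuclear and poly(A) levels of the members followed each other (log2 scale, Pearson r = 0.70, Spearman rho = 0.71 over 62 genes that share the same libraries), about as over all tested genes (r = 0.70, rho = 0.69). The 10 most abundant members held 47.3% of the members' summed RPKM in nuclear RNA and 40.2% in poly(A) RNA.

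Both plastid-type and mitochondrial members were mostly lower in nuclear RNA. Of the plastid-type genes, 44 of 55 tested were lower, with a median log2 difference of -1.52. Of all tested genes, 30.0% were lower. Mitochondrial genes were lower in 6 of 7, with a median of -1.33 and a range of -3.77 to -0.34. The summed plastid-type RPKM was 490 ± 34.2 in nuclear and 1423 ± 54.0 in poly(A) RNA, and the summed mitochondrial RPKM 93.5 ± 16.6 and 272 ± 7.24 (SD, n = 4 each), ratios of 2.91 and 2.90 of poly(A) over nuclear RNA. The difference between the class medians was -0.19, and was 0.01 without nuclear replicate 2. Computed in each nuclear library alone it had an SD of 0.18, which is a spread of single libraries and not the error of their mean. Genes that named the chloroplast or plastid had a median of -1.3 when taken alone, beside -1.33 for the mitochondrial genes. With 7 mitochondrial members, the comparison of classes is a description and was not tested.

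Among plastid-type genes that named the chloroplast or plastid, 14 of 22 tested were lower, with a median of -1.30, against 30 of 33 genes named 30S or 50S alone, with a median of -1.60. The median member of the chloroplast class averaged 3.40 RPKM in nuclear and 8.59 RPKM in poly(A) RNA, and that of the 30S or 50S class 7.11 and 28.4 RPKM. The summed RPKM of poly(A) over nuclear RNA was 2.64 in the chloroplast class and 3.03 in the 30S or 50S class. Of all tested genes, 30.0% were lower. No test of the difference between these classes was made.

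**Figure D2:**
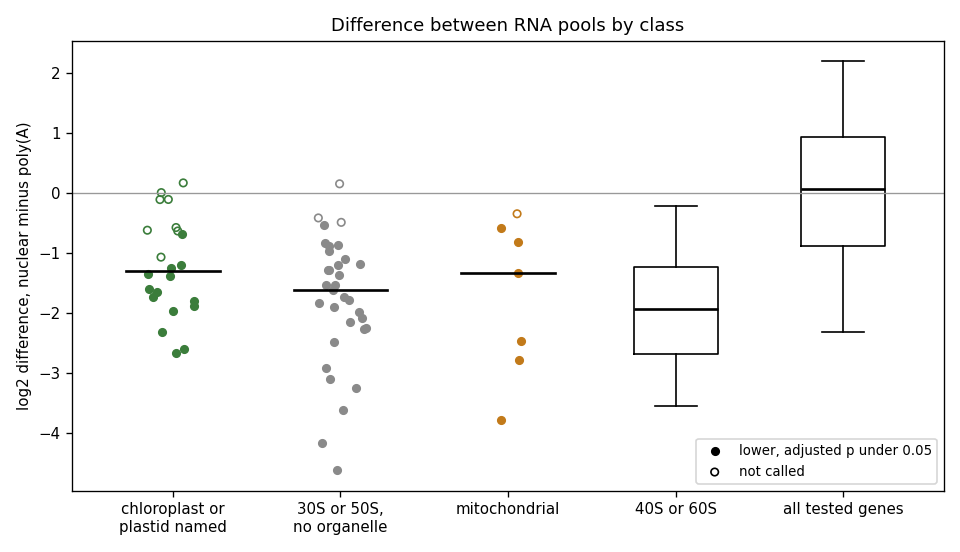
Log2 difference, nuclear minus poly(A), of each tested member by class, with filled points for genes lower at an adjusted p under 0.05, open points for genes not called and a bar at the class median. Boxes for 40S or 60S ribosomal protein genes and for all tested genes show quartiles and median, with whiskers at the 5th and 95th percentiles. The 3 organellar classes have medians between -1.60 and -1.30, and that of all tested genes is 0.08.

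Among large-subunit proteins, 34 of 40 tested genes were lower in nuclear RNA, with a median of -1.56. Among small-subunit proteins 16 of 21 were lower, with a median of -1.17, beside 30.0% of all tested genes. The tested genes had a median length of 849.5 nt for the large and 1048 nt for the small subunit. In the 30S or 50S class that order was reversed, at 841 and 780 nt. Whether length bears on the difference between subunits was not tested. Summed RPKM over the large subunit was 291 ± 11.7 in nuclear and 1033 ± 29.5 in poly(A) RNA, 3.55 times as much. Over the small subunit it was 285 ± 38.9 and 657 ± 29.8 RPKM (SD, n = 4 each), 2.30 times as much. In nuclear RNA the subunits thus had nearly equal mean sums. The small subunit had the larger sum in nuclear replicates 2 and 3, the large subunit in replicates 1 and 4. In poly(A) RNA every library held more for the large subunit, which also had more genes.

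The lowest member was L24 (OS12G0135900), named for a protein that starts assembly of the large subunit in Escherichia coli. It had 0, 2.73, 1.59 and 1.94 RPKM in the nuclear libraries, against 56.9, 50.9, 56.2 and 58.4 RPKM in the poly(A) libraries (log2 difference -4.62 ± 0.37 SE, adjusted p = 1.2e-05). Every poly(A) library was far above every nuclear library, of which 1 had no read of this gene. The nuclear values rested on 5 reads in all, against 2875 in poly(A) RNA, and pooled reads, scaled by the depths of the pools, gave a ratio of poly(A) over nuclear RNA of 32.8 (exact 95% binomial interval 14.0 to 101). Such intervals cover counting error only.

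L27 (OS04G0321500), whose bacterial counterpart lies next to the peptidyl transferase centre, had 0, 5.97, 0 and 0 RPKM in nuclear RNA, against 29.0, 25.9, 29.6 and 27.9 RPKM in poly(A) RNA (-4.16 ± 0.60, adjusted p = 0.000367). All its 6 nuclear reads came from replicate 2, and the other nuclear libraries were listed at 0. Pooled reads gave this gene a ratio of poly(A) over nuclear RNA of 12.6 (interval 5.77 to 34.4). L20 (OS05G0528200), an early assembly protein in Escherichia coli, had 1.91, 0.588, 1.03 and 2.51 RPKM in nuclear RNA, against 28.4, 27.02, 26.3 and 32.0 RPKM in poly(A) RNA (-3.62 ± 0.25, adjusted p = 5.45e-06). The pools lay far apart for both genes, although L20 too had only 6 nuclear reads (ratio 21.5, interval 9.87 to 58.7).

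L22 (OS01G0616500), whose counterpart in bacteria lines the exit tunnel, held the most reads of any member in poly(A) RNA. It had 23.7, 33.2, 28.0 and 21.0 RPKM in nuclear RNA, against 73.2, 63.3, 74.2 and 63.7 RPKM in poly(A) RNA (-1.36 ± 0.17, adjusted p = 0.000136). The pools did not overlap. L7/L12 (OS07G0626100), a protein of the stalk that recruits elongation factors, averaged 15.3 ± 5.61 RPKM in nuclear and 37.1 ± 2.73 RPKM in poly(A) RNA, a difference of -1.29. L11 (OS03G0122200), which in bacteria sits at the base of that stalk, was low in both pools, at 0.651 ± 1.03 and 4.04 ± 0.281 RPKM, and was called lower (-1.79), having passed the filter through the poly(A) pool only. The genes named L24e (OS01G0514000) and L40 (OS01G0278900) carry names of archaeal or eukaryotic type, and were lower, with log2 differences of -1.29 and -1.52.

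In the 30S or 50S class the small-subunit genes had a median difference of -1.17 and the large-subunit genes -1.76. S15 (OS02G0803200), which binds the small ribosomal RNA early in bacterial assembly, had 25.7, 31.1, 24.5 and 23.6 RPKM in nuclear RNA, against 47.2, 46.5, 48.6 and 47.1 RPKM in poly(A) RNA (-0.84 ± 0.13, adjusted p = 0.000532). Its 287 nuclear reads were the most of any member, and the replicates of each pool lay close together. S13 (OS03G0704000), in the head of the bacterial subunit, averaged 1.76 ± 1.94 RPKM in nuclear and 10.4 ± 0.780 RPKM in poly(A) RNA, the largest difference among these genes at -2.25. S18 (OS10G0500500) and S9 (OS07G0658200) were lower, at -1.17 and -0.86, also without overlap of the pools.

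Among the genes naming the chloroplast, the most abundant in poly(A) RNA was S31 (OS09G0528100), a small basic protein of the plastid 30S subunit. It had 39.3, 36.3, 52.8 and 24.2 RPKM in nuclear RNA, against 96.1, 88.1, 105 and 103 RPKM in poly(A) RNA (-1.39 ± 0.22, adjusted p = 0.000688). It was the highest member of the whole set in poly(A) RNA, and its pools did not overlap. S21 (OS02G0189000) had 5.89, 6.65, 0 and 0 RPKM in nuclear RNA, against 13.6, 16.1, 14.6 and 16.7 RPKM in poly(A) RNA (-2.59 ± 0.71, adjusted p = 0.0116). With no read in 2 nuclear libraries, it had among the largest standard errors of any member, which ranged from 0.12 to 0.71 with a median of 0.30.

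L12 (OS01G0662300, RPL12-2) was lower, at a log2 difference of -2.32 on 4 nuclear reads. L24 (OS06G0683200) was at -1.96 on 11 nuclear reads, and L18 (OS03G0828100), which in bacteria binds the small RNA of the large subunit, at -1.87 on 25. For L18 the nuclear libraries held 13.1, 1.73, 1.01 and 8.60 RPKM, against 16.7, 16.9, 19.5 and 19.4 RPKM in poly(A) RNA. Replicates 1 and 4 of the nuclear pool were well above the other 2. The call (adjusted p = 0.0219) was lost without nuclear replicate 2 (0.057) and without poly(A) replicate 3 (0.0515) or 4 (0.0521), and with the length trend taken off (0.0572).

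Plastid-specific ribosomal proteins have no counterpart in the bacterial ribosome or, for PSRP-1, resemble a bacterial factor that stores idle ribosomes. PSRP-2 (OS09G0279500) had 0, 0.766, 1.34 and 0.817 RPKM in nuclear RNA, against 4.51, 4.47, 4.99 and 5.13 RPKM in poly(A) RNA, and was called lower (-1.80, adjusted p = 0.000256), having passed the filter through the poly(A) pool only. PSRP-1 (OS03G0856500) averaged 2.47 ± 2.78 and 4.88 ± 0.488 RPKM and was not called (-1.06, adjusted p = 0.0704) and its nuclear replicate 2 exceeded every poly(A) library. PSRP6 (OS11G0550800) had 3.68, 17.4, 3.96 and 1.61 RPKM in nuclear RNA, against 3.58, 3.65, 4.72 and 4.64 RPKM in poly(A) RNA (0.17 ± 0.52, adjusted p = 0.782). It had the highest log2 difference of all members, which rested on nuclear replicate 2 and was -0.38 without that library.

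Other chloroplast members not called were S1 (OS03G0315800), whose bacterial counterpart helps messenger RNA to bind, S6 (OS03G0843400), L4 (OS03G0265400), L15 (OS03G0219900) and L35 (OS06G0647100), besides an L3 gene described with its copy. Their log2 differences were -0.63, 0.01, -0.10, -0.62 and -0.57 in that order. Each of these 5 averaged under 7 RPKM in either pool. L35 had 12.7, 4.81, 3.15 and 1.28 RPKM in nuclear RNA, against 5.33, 6.38, 7.17 and 8.58 RPKM in poly(A) RNA, and its nuclear replicate 1 lay above all the other libraries. Without that library L35 was called lower, at -1.03 (adjusted p = 0.0239).

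Of the mitochondrial members, L37 (OS12G0244200) was lowest. It had 0, 3.35, 5.85 and 2.86 RPKM in nuclear RNA, against 43.4, 44.3, 41.1 and 46.7 RPKM in poly(A) RNA (-3.77 ± 0.52, adjusted p = 0.000266). S27/S33 (OS05G0148300), the most abundant mitochondrial member in poly(A) RNA, had 11.1, 22.7, 13.2 and 6.46 RPKM in nuclear RNA, against 90.7, 85.1, 92.7 and 91.0 RPKM in poly(A) RNA (-2.78 ± 0.31, adjusted p = 7.91e-05). Neither gene's pools overlapped. L37 rested on 12 nuclear reads and S27/S33 on 53.

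S10 (OS12G0517200), a protein of the small-subunit head, averaged 2.91 ± 2.41 RPKM in nuclear and 17.8 ± 0.251 RPKM in poly(A) RNA and was lower, at a log2 difference of -2.46. L47 (OS06G0128500), related to bacterial L29, averaged 12.0 ± 5.15 and 29.5 ± 1.12 RPKM, a difference of -1.33. S35 (OS01G0801700) had 16.2, 21.9, 18.9 and 30.4 RPKM in nuclear RNA, against 33.6, 30.3, 33.5 and 32.0 RPKM in poly(A) RNA. It passed the test (-0.58 ± 0.19, adjusted p = 0.0265) although nuclear replicate 4 lay just above the lowest poly(A) library, and the call was lost without nuclear replicate 1 (adjusted p = 0.052) or replicate 3 (0.0567) and without any single poly(A) replicate (0.0504 to 0.0676). It was also lost with libraries scaled to an equal sum (-0.33, adjusted p = 0.163), with the 100 highest genes left out of that sum (-0.29, 0.218) and with a replicate block (0.0567).

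S29 (OS07G0202900), the counterpart of a GTP-binding protein of the mammalian mitochondrial ribosome, had 22.1, 33.8, 23.8 and 22.1 RPKM in nuclear RNA, against 35.5, 29.5, 32.4 and 31.0 RPKM in poly(A) RNA (-0.34 ± 0.17, adjusted p = 0.103). It was not called, and nuclear replicate 2 stood inside the poly(A) range. Without that library it was called lower, at -0.48 (adjusted p = 0.00998).

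Some proteins were represented by several genes of the same class. This held for 11 proteins with 24 genes, which formed 15 pairs. The log2 difference between the genes of a pair was computed within each library. In 8 pairs its nuclear and poly(A) values did not overlap, among them an L12 pair of which OS05G0568300 had almost no reads. Pairs within L13 and within L27 share genes, so the pairs are not independent. The same count was not made for pairs of other genes. Of all tested genes taken singly, 29.4% lay wholly below and 31.7% wholly above in nuclear RNA. No test was made. Reads shared by near-identical copies could have been assigned to either, and the sources used here do not give how the authors counted them.

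For L13 the 3 genes differed widely. OS05G0243300 had 19.1, 5.60, 5.86 and 13.1 RPKM in nuclear RNA, against 80.2, 75.1, 82.2 and 81.1 RPKM in poly(A) RNA (-2.92 ± 0.35, adjusted p = 0.000125). OS05G0243100 had 2.87, 5.59, 4.10 and 3.14 RPKM in nuclear RNA, against 3.62, 3.33, 2.68 and 3.70 RPKM in poly(A) RNA (0.16 ± 0.19, adjusted p = 0.493). The more abundant gene exceeded the other by 1.14 ± 1.12 in nuclear and 4.22 ± 0.18 in poly(A) libraries (log2 difference, SD, n = 4 each), with no overlap. The sign for OS05G0243100 turned with quantile normalization (-0.10). OS08G0162033 was called lower at -3.09, with 7 nuclear reads in 2 libraries and none in the other 2.

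Of the L24 genes, OS11G0139100 had 4.22, 4.67, 4.53 and 3.32 RPKM in nuclear RNA, higher than OS12G0135900 in every library, and the genes averaged 47.9 ± 2.60 and 55.6 ± 3.27 RPKM in poly(A) RNA. The difference of OS12G0135900 minus OS11G0139100 was -1.16 ± 0.85 in nuclear and 0.21 ± 0.10 in poly(A) libraries. A pair of L27 genes with adjacent identifiers in the chloroplast class were OS08G0404200 (RPL27-2) and OS08G0404300 (RPL27-1). In nuclear RNA RPL27-2 had 6.47, 7.96, 10.4 and 14.9 RPKM and RPL27-1 30.4, 34.7, 31.1 and 23.4 RPKM. In poly(A) RNA they averaged 65.3 ± 2.33 and 68.9 ± 2.40 RPKM. Both were lower than in poly(A) RNA, RPL27-2 at -2.66 and RPL27-1 at -1.19, and the difference between them (RPL27-2 minus RPL27-1) was -1.54 ± 0.67 in nuclear and -0.08 ± 0.02 in poly(A) libraries.

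L3, which lies close to the peptidyl transferase centre in bacteria, had a gene called lower, OS01G0251100 (-1.65, adjusted p = 8.08e-06), and a gene not called, OS02G0137200 (-0.10, adjusted p = 0.758). In nuclear RNA they averaged 8.92 ± 0.626 and 7.65 ± 3.19 RPKM, and in poly(A) RNA 30.0 ± 2.27 and 7.78 ± 0.569 RPKM. The sign for OS02G0137200 turned under other scalings (0.13 to 0.18) and without nuclear replicate 3 (0.15).

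S16, needed for small-subunit assembly in Escherichia coli, showed the same arrangement. OS08G0517900 was called lower (-1.89, adjusted p = 0.00516) with 10.7, 12.6, 25.2 and 3.85 RPKM in nuclear RNA, against 41.8, 39.6, 46.5 and 45.1 RPKM in poly(A) RNA. OS09G0498100 was not called (-0.41, adjusted p = 0.102) with 28.2, 45.4, 46.6 and 52.7 RPKM in nuclear RNA, against 55.3, 52.3, 56.8 and 61.1 RPKM in poly(A) RNA. It was the highest member of all in nuclear RNA, and without nuclear replicate 4 it was called lower (adjusted p = 0.0449). The L1 genes OS05G0388500 and OS06G0546400, of the stalk opposite L7/L12, were at -0.54 (adjusted p = 0.0458) and -0.48 (adjusted p = 0.102). The call for OS05G0388500 was lost under most alternatives tried, among them without nuclear replicate 2 and without any single poly(A) replicate, with adjusted p-values up to 0.288. OS06G0546400 was called lower with the length trend taken off (-1.03, adjusted p = 0.00493), with median centring (0.0437) and with voom (0.0491).

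The pairs with overlapping values were those of L1, L20 (OS05G0528200 and OS01G0734100), L33 (OS05G0452600 and OS05G0513500), S17 (OS04G0691600 and OS08G0359600) and S31 (OS05G0186000 and OS09G0528100), besides a pair each of L13 and L27. In L20, L33, S17 and S31 both genes were lower in nuclear RNA. The L33 gene OS05G0452600 and the S31 gene OS05G0186000 each had a nuclear library without a read, and adjusted p-values of 0.0215 and 0.015, which became 0.0872 and 0.0828 with a pseudocount of 0.1.

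**Figure D3:**
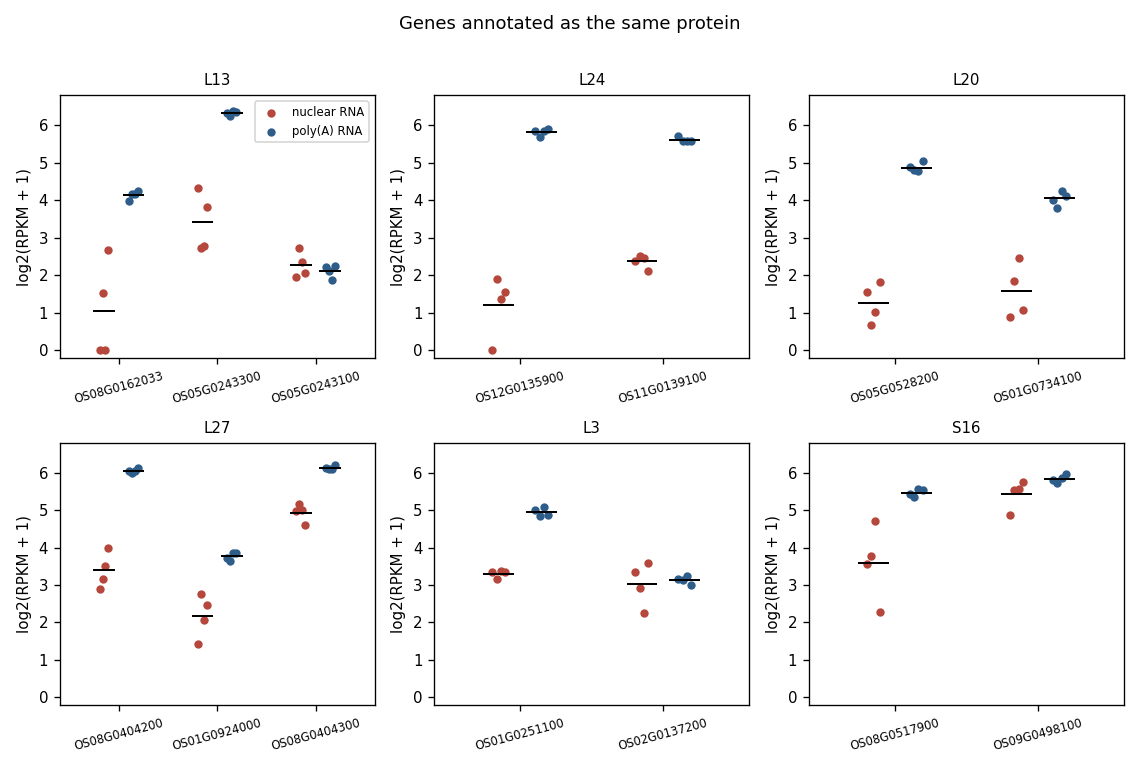
Levels of genes annotated as the same protein, for 6 of the 11 proteins, as log2(RPKM + 1) in each nuclear library (red) and poly(A) library (blue), with a bar at the mean of 4 log2 values. L13, L24, L27, L3 and S16 each hold at least 1 pair of genes whose difference did not overlap between the pools, whereas the L20 pair did overlap.

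Members left untested were 4. L16 (OS11G0269100) and S7 (OS09G0110750) had no read in any library. L6 (OS03G0751400) had no nuclear and 5 poly(A) reads, and L12 (OS05G0568300) no nuclear and 1 poly(A) read. Both L16 and S7 carry names that are also found among the 21 ribosomal protein names on the plastid genome in the RefSeq table of rice. So did 9 of the other genes of the 30S or 50S class (L20, L33 and S16 with a pair each, L22, S15 and S18). Of the 9 tested genes of the 30S or 50S class with such a name, 8 were lower, with a median of -1.89, and of the 24 tested genes with other names 22 were lower, with a median of -1.56. With the untested genes included, the median of the 10 genes with such a name was 11.2 RPKM in nuclear and 43.6 RPKM in poly(A) RNA, and that of the 25 other genes 5.02 and 22.8 RPKM.

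The difference between the pools went with gene length. The log2 difference was closer to 0 in genes of greater log length, as recovered from the RPKM, with Pearson r = 0.51 and Spearman rho = 0.51 over the 62 members, which share their libraries. The same values were 0.19 and 0.20 over all tested genes and 0.34 and 0.31 over 165 genes named 40S or 60S. Of the 31 members under the median length of 860 nt, 28 were lower, with a median of -2.07, and of the 31 at or above it 22, with a median of -1.17. All tested genes had a median length of 1496 nt. With the length trend of all genes taken off, 45 members were lower, with a median of -1.11. The difference also went with poly(A) level, with Pearson r = -0.42 and Spearman rho = -0.37 over the members. Over all tested genes these were -0.5 and -0.49. Poly(A) level enters the difference itself, so such a correlation is partly built in. The median gene averaged 17.2 RPKM in poly(A) RNA over the 66 members and 3.97 RPKM over all 35664 genes. How length, level and the pools' RNA selection bear on the difference was not tested further.

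**Figure D4:**
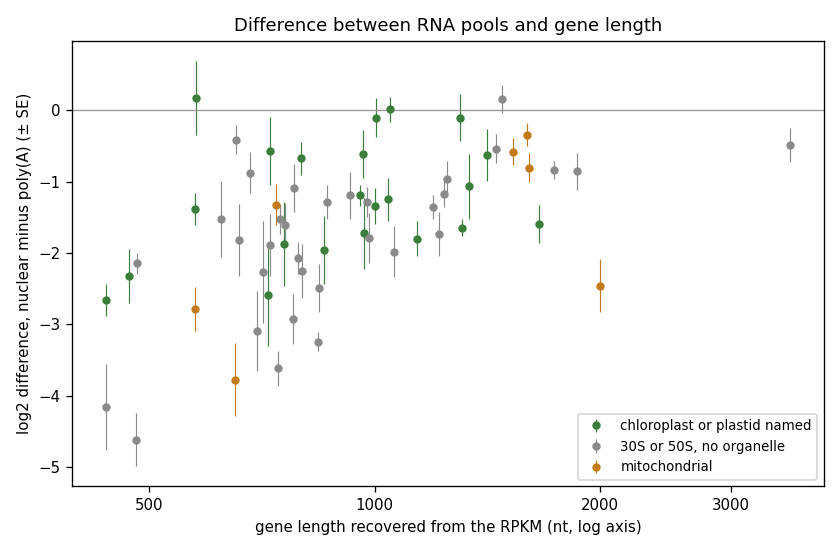
Log2 difference, nuclear minus poly(A), of the 62 tested members (with its standard error) against gene length in nt on a log axis, coloured by class. Members with differences below -2.5 are shorter than 1000 nt, and the mitochondrial genes are split between 3 short and 4 long ones.

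The 172 genes named 40S or 60S, the cytosolic ribosomal proteins, were set beside the organellar ones. Of 165 tested, 154 were lower in nuclear RNA and 4 higher, with a median of -1.93. Their sum was 16140 ± 963 RPKM in nuclear and 54790 ± 1397 RPKM in poly(A) RNA (SD, n = 4 each), 3.39 times as much, against 2.91 for the organellar members. The exceptions included a 60S L35 gene, OS06G0732000, which averaged 53.7 ± 11.0 RPKM in nuclear and 3.17 ± 0.180 RPKM in poly(A) RNA (3.69, adjusted p = 9.34e-07). Ribosomal protein also stood in the descriptions of 117 genes in neither list, with kinase and methyltransferase again left out. Of 101 tested, 69 were lower and 9 higher, with a median of -1.43, beside 30.0% and 33.1% of all tested genes. No organellar member was higher, and differences between the lists were not tested.

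Other genes of organellar gene expression were taken by words of their descriptions. Of 12 tested translation factors, 7 were lower in nuclear RNA, 3 of them by at least 2-fold, and 5 were not called, with a median of -0.83. Of the 12, 1 had passed the filter through the poly(A) pool only. Of all tested genes, 30.0% were lower, and 21.2% were lower by at least 2-fold. Ribosome recycling factor (OS04G0490400), which splits the subunits after termination, averaged 3.99 ± 1.56 RPKM in nuclear and 27.2 ± 1.52 RPKM in poly(A) RNA (-2.55, adjusted p = 2.17e-05). The elongation factor EF-TuM (OS03G0851100), which brings charged transfer RNA to the ribosome, averaged 37.8 ± 9.18 and 125 ± 3.94 RPKM (-1.73, adjusted p = 5.77e-05). All 5 organellar aminoacyl-tRNA synthetases were lower, 2 of them by at least 2-fold, with a median of -0.90. They included a mitochondrial glycyl-tRNA synthetase (OS04G0398300, -1.99) and the valyl-tRNA synthetase WP1 (OS07G0163500, -1.45), which is needed for chloroplast ribosome biogenesis in rice.

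Of 11 tested genes for assembly of bacterial-type ribosomes, 2 were lower and 1 higher, with a median of -0.22, against 30.0% lower and 33.1% higher among all tested genes. EngA (OS11G0638000), a GTPase of large-subunit assembly in bacteria, was lower (-1.42, adjusted p = 0.017). Of the genes with a GTP1/OBG domain, OS08G0158900 was lower (-1.04) and OS03G0727900 was higher, averaging 16.0 ± 4.55 RPKM in nuclear and 7.23 ± 0.550 RPKM in poly(A) RNA (1.01, adjusted p = 0.00198).

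Of 13 tested genes found by words for organellar transcription, 6 were lower and 7 were not called, with a median of -0.51. Of the 13, 2 had passed the filter through the poly(A) pool only. Among all tested genes, 30.0% were lower. The lowest, OS06G0140900, has regions of a sigma factor, a promoter-recognition subunit of bacterial-type RNA polymerase (-2.60, adjusted p = 0.000232). This list also caught OS03G0228400, a sigma-adaptin of vesicle transport and no organellar gene, which was lower too (-1.78). Of 41 tested protein import genes, 22 were lower and 7 higher, with a median of -0.71, beside the same 30.0% and 33.1% of all tested genes. A mitochondrial Tim10 gene (OS07G0243100), a carrier chaperone between the membranes, was at -4.14, and the chloroplast Tic55 gene (OS02G0792800) was at 1.99.

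Photosynthesis genes were low in these root tips. Of 62, 33 passed the filter, 8 of them through the poly(A) pool only and 5 through the nuclear pool only. Among the 33, 7 were lower and 7 higher, with a median of 0.00, where 30.0% and 33.1% of all tested genes were. Their sum was 108 ± 14.4 RPKM in nuclear and 88.9 ± 14.2 RPKM in poly(A) RNA, against 583 and 1694 RPKM for the organellar ribosomal proteins.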

How the data were processed

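The deposited table held RPKM computed by the authors for 4 nuclear and 4 poly(A) libraries. Per the submitters' processing notes, CASAVA 1.8, FastQC, TopHat2 2.1.1 and IRGSP-1.0 were used; how reads were counted, with which strand setting and against which gene models, is not given in the sources used here, so overlapping and antisense genes cannot be told apart. Whole reads were recovered from the RPKM for all 33191 genes above 0 (within 0.002 of a read), as were gene lengths (99.65% within 0.02 nt of a whole number). Pools were compared with limma 3.58.1 in R 4.3.3 (lmFit and eBayes, two-sided) on log2(RPKM + 1). The 26928 genes tested averaged 1 RPKM or more in nuclear or poly(A) RNA, and p-values were adjusted over all of them by the Benjamini-Hochberg method. The script was tested on simulated data. A fold change on this scale can fall below or above the ratio of mean RPKM in low genes. For L12 (OS01G0662300) it was 4.99 against a ratio of 6.92, and for S21 (OS02G0189000) 6.02 against 4.87. Replicates are those of the series' design text, and columns were matched to the pools by their names. Same-numbered libraries did not deviate together (correlations -0.048 to 0.009), so no pairing was used.

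The members and lists were chosen with earlier results of these data known. "Ribosomal protein" was matched in either case; lower case alone gave 61 members. Genes named are, per class, the 5 largest called differences, the 3 most abundant in poly(A) RNA, the 3 most abundant not called, genes with 0 in a pool, genes that share a protein name and, per comparison list, up to 2 lowest and 2 highest; S1, S6, S9, S13, S15, S18, L4, L7/L12, L11, L15, L24e, L40, PSRP-1 and PSRP-2 were added after their values were seen. Protein roles are background knowledge. A mitochondrial member is counted but its values are not reported here. Sequences and coordinates were not analysed here.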

Additional observations from a re-analysis of the deposited data

Results flagged for a closer look

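Among the named members, 74 groups of 4 libraries were examined for a library far from the other 3, and 5 stood out by Dixon's test at its 95% level. Chance gives about 1 in 20. In 4 of the 5 the library was nuclear replicate 2, the deepest nuclear library. L27 (OS04G0321500) had 5.97 RPKM in nuclear replicate 2 and 0 in the other nuclear libraries. PSRP6 (OS11G0550800) had 17.4 RPKM there, against 1.61 to 3.96 RPKM in the others, and the mitochondrial S29 (OS07G0202900) 33.8 RPKM, against 22.1 to 23.8 RPKM. L3 (OS01G0251100) had 7.98 RPKM there, lower than the others at 9.18 to 9.29 RPKM. In poly(A) RNA, L24 (OS11G0139100) had 51.9 RPKM in replicate 1, against 46.6 to 46.7 RPKM in the others.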

How the results depend on the processing

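Over the alternatives run, 42 to 54 members were lower in nuclear RNA and none was higher; leaving out a library in turn gave 44 to 50 lower and 0 higher. The median log2 difference of the members was -1.54 to -1.37 without a library in turn, and moved to -1.21 with libraries scaled to an equal RPKM sum, -1.17 with the 100 highest genes left out of that sum and -1.11 with the length trend taken off, while these scalings put the median of all tested genes at 0.29, 0.32 and 0.02. Plastid-type minus mitochondrial was -0.35 to 0.01 without a library in turn (0.01 without nuclear replicate 2), 0.03 with chloroplast or plastid named genes alone, and -0.72 with lower-case matching, which leaves 3 mitochondrial genes. All tested genes called were 7020 to 8371 lower and 7874 to 9609 higher without a library in turn; an equal sum without the 100 highest genes gave 6319 and 10557. Signs turned for 4 genes that were not called: OS02G0137200 (0.13 with an equal sum, 0.16 without the 100 highest, 0.18 with the length trend off, -0.29 to 0.15 without a library in turn), OS05G0243100 (-0.10 with quantile normalization), OS11G0550800 (-0.02 with quantile normalization, -0.38 to 0.56 without a library in turn) and OS09G0498100 (0.02 with the length trend off); the cause was not tested. Of 702 values of 37 named members, 658 kept direction and side of the threshold, 28 lost the call and 8 gained it. With a replicate block 48 members were lower, and OS05G0388500 (adjusted p = 0.0781) and OS01G0801700 (0.0567) lost their calls; the numbers did not pair the libraries. A test of the recovered reads with voom, added after seeing the data, called 50 lower. DESeq2 and edgeR alternatives were not run. Depth limits the nuclear values: for a gene of 1 kb, a single read counted as 0.436 to 0.930 RPKM in nuclear and 0.0333 to 0.0514 RPKM in poly(A) libraries.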
